A study of Mus musculus with 6 samples.

Results

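Mt1 and Mt2 are the metallothionein genes described here. They were 2 of 34187 gene features, and they were selected on their own treatment differences in macrophages, dendritic cells, tumor cells and annotated lymphocytes of these same libraries. Their values in those cells are therefore given as a description with no test. Tests were run only on other genes and on cell classes that the selection did not name. The other genes were tested in the same cells, and their lists were chosen with earlier results of these data known.

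The cells came from subcutaneous 6694c2vTRP1 tumors, a clonal pancreatic cancer line derived from the KPC mouse model, in the right flank of male and female C57BL/6 mice whose age was not stated for this experiment. Mice were injected intraperitoneally with PBS, with 26 µg of mono-IL10 or with 30.6 µg of IL10/2-Trikine, in 2 doses every other day from day 8, and tumors were taken on day 14. mono-IL10 is an engineered monomer of IL-10, which signals through STAT3. IL10/2-Trikine is the same monomer fused to an IL-2 variant arm that brings the IL-2 receptor beta chain into the IL-10 receptor complex and adds STAT5 signalling. Digested tumors were enriched for CD45+ cells, each mouse was marked with its own hashtag antibody, and the mice of a treatment were pooled into 1 droplet library of 5' transcripts. There were 5 mice in each treated group. For PBS the number was not stated, and the 5 hashtags found in its library were taken as 5 mice. Comparisons are over mice, with n = 5 per group unless stated, and values from the summed cells of a library are named as such. Because each treatment was 1 library, treatment and library cannot be told apart.

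Metallothioneins are small, cysteine-rich proteins that bind zinc and copper and buffer their free levels in the cell. Mt1 and Mt2 are expressed in most tissues, and their transcription is raised by zinc through the metal-sensing factor MTF1, by glucocorticoids, by inflammatory cytokines and by oxidative stress. In macrophages they are known as part of the handling of zinc during activation. Mt3 is known from the brain and Mt4 from stratified epithelia.

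The genes lie side by side on chromosome 8, on the plus strand, in a cluster with Mt3 and Mt4. In the GENCODE annotation of build GRCm38, Mt2 spans positions 94172664 to 94173568 and Mt1 spans 94179082 to 94180327, with 5513 bases between them. The counts themselves were made by the authors on build GRCm39, so these positions belong only to the sequences. Both promoters are shown with the core of the metal response element, the site of MTF1, where it occurs in them. GENCODE also lists later starts for both genes, and for Mt1 the bases just before its latest start lie beyond the window used here, so the numbers of matches depend on the start chosen and are not compared between the genes. The element was searched as TGCACNC or TGCGCNC on both strands of a window of the 250 bases before each RefSeq start. Its matches are in capitals in the stretches before the transcribed bases (RefSeq, GRCm38.p6, 5′ to 3′, with Mt1 at chr8:94178839-94179081 and Mt2 at chr8:94172368-94172617).
Mt1: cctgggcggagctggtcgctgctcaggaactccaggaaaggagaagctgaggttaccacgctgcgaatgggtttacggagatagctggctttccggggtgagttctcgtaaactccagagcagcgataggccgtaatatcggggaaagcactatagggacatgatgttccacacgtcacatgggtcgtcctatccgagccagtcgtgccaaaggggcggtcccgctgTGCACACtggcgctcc
Mt2: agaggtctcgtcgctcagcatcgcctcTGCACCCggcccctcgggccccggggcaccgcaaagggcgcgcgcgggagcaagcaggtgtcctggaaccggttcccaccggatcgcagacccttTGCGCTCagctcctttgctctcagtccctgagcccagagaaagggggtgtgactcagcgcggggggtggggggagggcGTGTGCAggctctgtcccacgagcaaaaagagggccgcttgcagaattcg
The Mt1 window held 1 match, at bases -23 to -17 from the start. The Mt2 window held 3, at -223 to -217, at -128 to -122 and, on the other strand, at -50 to -44. Of 32851 mouse promoter windows of this length, 21.4% held at least 1 such match and 1.26% held at least 3. The STAT site letters TTCNNNGAA were in neither window and in 7.02% of all windows. The hypoxia element core ACGTG was in the Mt1 window once (16.6% of all windows held it), and the antioxidant element core TGACNNNGC was in the Mt2 window once (10.2%). None of these matches overlapped another. A match is only a run of letters, and its absence says only that the letters are not in this window.

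Mt1 and Mt2 could be counted apart from each other. Their transcripts shared no run longer than 20 bases, and no other gene shared a run of 50 bases with either. Since each unique molecular identifier (UMI) counts 1 molecule from its 5' end, levels of both genes are compared directly, as CPM, the UMIs of a gene per 1000000 UMIs of the summed cells. Among cells that passed the filters, Mt1 took 0.144% of all UMIs in the PBS library, 0.212% in the mono-IL10 library and 0.194% in the IL10/2-Trikine library. Mt2 took 0.0241%, 0.0380% and 0.0294%. Mt3 was rare, with 1576, 2472 and 1652 UMIs in the PBS, mono-IL10 and IL10/2-Trikine libraries, and Mt4 had 3, 3 and 4 UMIs.

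The libraries held 515236552 gene UMIs in the PBS library, 458860129 in the mono-IL10 library and 364814102 in the IL10/2-Trikine library over 44412, 30528 and 55504 barcodes. The labels call the cells CD45+ tumor-infiltrating lymphocytes, but 21217 of the cells assigned to a mouse were tumor epithelial-like, 19049 were macrophage-like, 1362 were dendritic cell-like and 1383 were T and NK cells annotated by the authors. These class names came from marker genes, and every marker of the class was higher in it than in all other cells. This is no separate check of the classes that the same markers named. A further 22773 cells with or without a mouse stayed unnamed. Between 408 and 700 cell barcodes occurred in both libraries of a pair.

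Macrophage-like cells had the highest Mt1 level of the named classes found in all 15 mice, and both genes stood higher in each treated mouse than in each PBS mouse. In PBS mice 1 to 5, Mt1 was at 1878, 1792, 1783, 2009 and 1983 CPM. In mono-IL10 mice it was at 3629, 3877, 3936, 3161 and 2739 CPM, and in IL10/2-Trikine mice at 3587, 3490.0, 3428, 3425 and 4204 CPM. The lowest treated mouse was thus above the highest PBS mouse, while the treated groups overlapped each other. Mean Mt1 was 1889 ± 105 CPM in PBS mice, 3468 ± 509 in mono-IL10 mice and 3627 ± 330 in IL10/2-Trikine mice (SD, n = 5 each). On the log2 scale Mt1 was 0.86 higher in mono-IL10 than in PBS (SE 0.11, 1.82-fold) and 0.94 higher in IL10/2-Trikine than in PBS (SE 0.07, 1.92-fold). IL10/2-Trikine and mono-IL10 differed by 0.07 (SE 0.11), which is within the spread between mice.

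Mt2, the less abundant member, showed the wider gap. In PBS mice its level in macrophage-like cells was 151.7, 119.4, 143.5, 183.2 and 167.4 CPM. In mono-IL10 mice it was 530.6, 638.5, 585.7, 416.5 and 540.1 CPM, and in IL10/2-Trikine mice 390.0, 426.0, 521.0, 310.8 and 640.0 CPM. Again no treated mouse overlapped a PBS mouse, and the treated groups overlapped. The log2 difference from PBS was 1.82 in mono-IL10 (SE 0.15, 3.53-fold) and 1.54 in IL10/2-Trikine (SE 0.21, 2.92-fold). The difference of IL10/2-Trikine from mono-IL10 was -0.27 (SE 0.21). The ratio of Mt1 to Mt2 UMIs accordingly went from 12.5 ± 1.5 in PBS to 6.46 ± 0.94 in mono-IL10 and 8.31 ± 1.88 in IL10/2-Trikine (SD, n = 5 each).

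Markers of other cell types in the macrophage class also moved with the group. Summed mature dendritic cell markers were at 38.4 to 70.7 CPM in PBS, 9.48 to 22.7 CPM in mono-IL10 and 12.8 to 25.3 CPM in IL10/2-Trikine. T cell markers were at 30.5 to 41.9 CPM, 16.3 to 39.7 CPM and 55.3 to 83.6 CPM. Fibroblast markers were at 15.2 to 25.9 CPM, 6.32 to 11.3 CPM and 19.6 to 37.0 CPM, whereas the macrophage markers themselves stood at 15950 CPM or more in every mouse. The part of these in the Mt values was not tested.

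**Figure D1:**
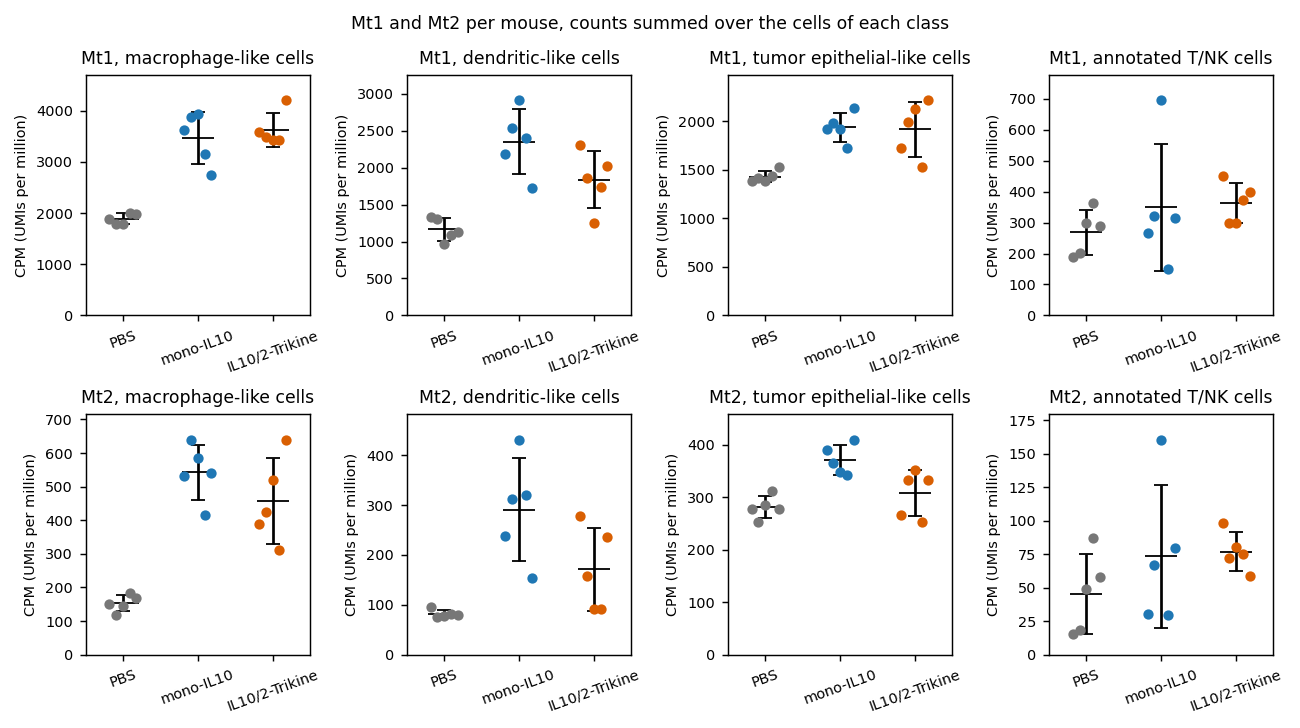
Mt1 (top) and Mt2 (bottom) in CPM of the summed UMIs for each mouse (1 point each, n = 5 per group) in macrophage-like, dendritic-like, tumor epithelial-like and annotated T and NK cells; the black bar and whiskers are the mean and SD. In macrophage-like cells both genes are higher in all 5 mice of each treated group than in any PBS mouse, and in annotated T and NK cells the groups overlap.

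The gap was also measured as a share of cells, over all macrophage-like cells of a library with or without a mouse. These shares describe 1 library per treatment and allow no test. After each cell was thinned to 1500 UMIs, 75.1% of the cells in PBS (95% Clopper-Pearson interval, 74.2 to 76.0) had an Mt1 UMI, against 89.0% in mono-IL10 (88.2 to 89.8) and 92.2% in IL10/2-Trikine (91.4 to 92.9). For Mt2 these shares were 13.3%, 34.0% and 31.9%. Intervals cover counting error only, and 3, 0 and 7 shallower cells were left out. Without thinning, at median depths of 4933, 6193 and 2775 UMIs, the Mt1 shares were 91.3%, 97.7% and 96.5%. Naive T cells, which should have little of either transcript, had a thinned Mt1 share of 11.0% in PBS and 13.1% in mono-IL10 at median depths of 2350 and 3018 UMIs (4 IL10/2-Trikine cells were too few to read). The median thinned macrophage had 2 Mt1 UMIs in the PBS library, 3 in the mono-IL10 library and 4 in the IL10/2-Trikine library, and the cell at the 90th percentile had 7, 11 and 12. The tenth of cells with the most Mt1 held 37.7% of the Mt1 UMIs in the PBS library, 34.1% in the mono-IL10 library and 31.1% in the IL10/2-Trikine library. Of macrophage-like cells with an Mt2 UMI, 98.6%, 99.6% and 98.95% also had an Mt1 UMI in PBS, mono-IL10 and IL10/2-Trikine, before thinning. Since 91.3%, 97.7% and 96.5% of all macrophage-like cells had an Mt1 UMI, these shares cannot show whether the genes go together.

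The same direction was found in nearly every macrophage-like cluster. Clusters had been formed without Mt1 and Mt2. A cluster was compared where at least 3 mice of each group had 10 of its cells, so some comparisons rest on fewer than 5 mice. IL10/2-Trikine had 3 mice in the cluster led by Cx3cr1 and Hpgds and 4 in the cluster led by Ear2, for example. Of the 12 clusters with enough cells in IL10/2-Trikine and PBS, Mt1 was higher in IL10/2-Trikine in 12, by 1.57- to 2.43-fold, with no overlap of mice in 11. Of 13 clusters with enough cells in mono-IL10 and PBS, Mt1 was higher in mono-IL10 in 13, by 1.39- to 2.58-fold, with no overlap in 8. Mt2 was higher in IL10/2-Trikine in 12 of 12 clusters, by 1.95- to 4.44-fold, with no overlap of mice in 7. It was higher in mono-IL10 in 12 of 13, with no overlap in 9. The exception was the monocyte-type cluster led by Chil3, Ifitm6 and Ms4a4c, with Mt2 at 53.4 ± 36.6 CPM in mono-IL10 and 74.0 ± 67.0 in PBS, within the spread of mice.

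Clusters also differed in level among themselves. The cluster led by Cx3cr1 and Hpgds had the lowest mean Mt1 in PBS, at 1177 ± 74 CPM, and Mt2 at 71.8 ± 13.0 CPM. The cluster led by Gpnmb and Mmp12, genes of lipid-laden and matrix-degrading macrophages, had Mt1 at 2215 ± 569 CPM and the highest PBS mean of Mt2, 367 ± 127 CPM. In IL10/2-Trikine it reached 5312 ± 878 CPM for Mt1 and 973 ± 276 for Mt2, and in mono-IL10 4734 ± 758 and 1059 ± 173 (SD, n = 5). The cluster led by Ear2, Dcstamp and Ccl17 had the highest PBS mean of Mt1, 2493 ± 338 CPM, and reached 5216 ± 997 in mono-IL10 (n = 5) and 5575 ± 2250 in IL10/2-Trikine (n = 4). The mix of clusters differed between libraries: the Cx3cr1 cluster held 1584 PBS, 183 mono-IL10 and 110 IL10/2-Trikine cells. With every mouse weighted to the same mix, the Mt1 difference from PBS was 1.02 in IL10/2-Trikine and 0.85 in mono-IL10 on the log2 scale, and that of Mt2 was 1.60 and 1.78.

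**Figure D2:**
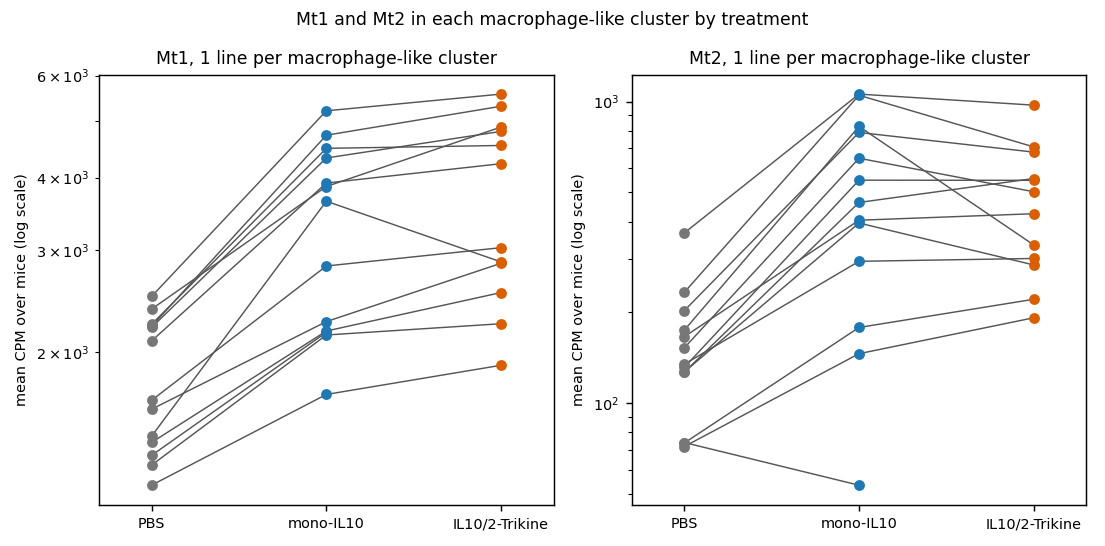
Mean Mt1 (left) and Mt2 (right) over mice, in CPM on a log axis, for each of 13 macrophage-like clusters (1 line each) in PBS, mono-IL10 and IL10/2-Trikine. Lines rise from PBS to both treatments in every cluster for Mt1, and in all but the Chil3-led cluster for Mt2, which has too few IL10/2-Trikine cells for a point there.

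Of the immune classes found in all 15 mice, dendritic cell-like cells had the next Mt1 levels, and the clearer gap was in mono-IL10. Mt1 was at 1336, 1312, 967.3, 1082 and 1126 CPM in PBS mice, at 2187, 2539, 2913, 2402 and 1730.3 in mono-IL10 mice and at 2305, 1865, 1253, 1745 and 2024 in IL10/2-Trikine mice. All 5 mono-IL10 mice were above the PBS mice (2.01-fold, log2 1.004, SE 0.15), as were 4 of 5 IL10/2-Trikine mice (1.56-fold, log2 0.64, SE 0.17). Mt2 was 81.4 ± 8.0 CPM in PBS mice, 291 ± 103 in mono-IL10 mice and 171 ± 84 in IL10/2-Trikine mice (SD, n = 5), with 5 and 3 treated mice above every PBS mouse. Conventional and mature dendritic cells were then taken apart. In conventional dendritic cells, which carry antigen to T cells, both genes were higher in all 5 mice of each treated group. Mt1 was 1247 ± 187, 2451 ± 483 and 2123 ± 413 CPM and Mt2 62.8 ± 15.6, 260 ± 113 and 132 ± 35 CPM in PBS, mono-IL10 and IL10/2-Trikine. In the only conventional cluster with enough cells, IL10/2-Trikine overlapped PBS for both genes (1.45-fold for Mt1, 1.58-fold for Mt2). There mono-IL10 did not overlap PBS (1.78- and 3.72-fold). The mix also differed: the cluster led by Ccl17 and Plet1 held 456, 283 and 229 cells, and the cluster with Clec9a and Xcr1 held 230, 87 and 63. Its part in the Mt values was not tested. In mature dendritic cells, marked by Ccr7 and Fscn1, groups overlapped: Mt1 was 884 ± 142 CPM in PBS (n = 5), 1733 ± 693 in mono-IL10 (n = 4) and 1491 ± 657 in IL10/2-Trikine (n = 4).

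RNA from other cells was also measured in the dendritic class. The summed level of the 8 macrophage markers there was 3343 to 7275 CPM in PBS mice, 3508 to 8776 in mono-IL10 mice and 1935 to 9921 in IL10/2-Trikine mice, against 15950 to 23096 CPM in macrophage-like cells over all groups. Free RNA was estimated from barcodes with under 1000 genes and from the tumor epithelial markers (Epcam, Krt8, Krt18, Krt19, Krt7 and Cldn4) in the other classes. Mt1 in these barcodes was 676 CPM in the PBS library, 830 in the mono-IL10 library and 1794 in the IL10/2-Trikine library. They are among the barcodes that the authors' Cell Ranger run kept as cells. Small or shallow cells can thus be among them, and the part of such cells in the estimate was not tested. By this estimate free RNA made up 64.7%, 38.2% and 34.6% of all dendritic RNA in PBS, mono-IL10 and IL10/2-Trikine. In macrophage-like cells it made up 13.9%, 10.8% and 13.7% of all RNA. Free RNA was estimated to give 38.4%, 13.9% and 31.0% of the dendritic Mt1 and 86.6%, 24.1% and 60.1% of the dendritic Mt2. Neutrophil markers in the dendritic class were at 456 to 1382 CPM in PBS, 76.5 to 390 CPM in mono-IL10 and 419 to 1320 CPM in IL10/2-Trikine, and their part in the Mt values was not tested. Once the free RNA estimate was subtracted, the dendritic Mt1 difference of IL10/2-Trikine from PBS turned from 0.64 to -0.19 on the log2 scale. That of mono-IL10 went from 1.004 to 0.68. In macrophage-like cells the estimate was 5.03%, 2.54% and 6.83% of Mt1, and after subtraction the differences from PBS stood at 0.91 in IL10/2-Trikine and 0.85 in mono-IL10.

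Tumor epithelial-like cells carried Mt1 and Mt2 in every mouse, with a smaller gap between groups. The values per mouse cover 5391 of 10617 such cells in PBS, 4777 of 7733 in mono-IL10 and 11049 of 22398 in IL10/2-Trikine. The rest had no mouse. Mt1 was at 1381, 1412, 1384, 1439 and 1528 CPM in PBS mice, at 1914, 1983, 1919.7, 1727 and 2134 in mono-IL10 mice and at 1726, 1989, 2121, 1528 and 2213 in IL10/2-Trikine mice. Every treated mouse was above every PBS mouse, narrowly for IL10/2-Trikine mouse 4 (1528.4 against 1527.6 CPM). The log2 difference from PBS was 0.44 in mono-IL10 (SE 0.06, 1.35-fold) and 0.41 in IL10/2-Trikine (SE 0.10, 1.33-fold). Mt2 was 281 ± 21 CPM in PBS mice, 372 ± 28 in mono-IL10 mice and 308 ± 44 in IL10/2-Trikine mice (SD, n = 5). All 5 mono-IL10 mice were above the PBS mice for Mt2, by 1.32-fold, and 3 of 5 IL10/2-Trikine mice were, by 1.09-fold. Mt1 was higher in 10 of 10 tumor clusters in both treated groups, with no overlap of mice in 5 for mono-IL10 and in 3 for IL10/2-Trikine. The cluster led by Iigp1 and Cxcl11, among the 5 for mono-IL10, had only 4 mice of that group. Mt2 was higher in 9 of 10 in mono-IL10 and in 6 of 10 in IL10/2-Trikine. The Mt1 to Mt2 ratio in these cells was 5.099 ± 0.42 in PBS mice, 5.21 ± 0.25 in mono-IL10 mice and 6.22 ± 0.30 in IL10/2-Trikine mice. The depth of these cells moved with the group: median UMIs per tumor cell ranged over mice from 21935 to 29013 in PBS mice, from 32302 to 40532 in mono-IL10 mice and from 9382 to 11588 in IL10/2-Trikine mice. The summed tumor epithelial markers were at 4342 to 5833 CPM in PBS, 4848 to 5511 CPM in mono-IL10 and 3834 to 4157 CPM in IL10/2-Trikine, and the median mitochondrial share of UMIs was 2.03% to 2.14%, 2.05% to 2.38% and 2.20% to 2.45%. Their part in the Mt values was not tested.

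Of these 4 classes annotated T and NK cells had the lowest means of both genes, and the groups overlapped. Mt1 was at 188.7, 202.7, 298.8, 362.8 and 289.5 CPM in PBS mice, at 265.3, 322.4, 695.5, 149.2 and 315.5 in mono-IL10 mice and at 449.3, 300.3, 297.8, 374.3 and 398.6 in IL10/2-Trikine mice. The mean was 269 ± 72, 350 ± 205 and 364 ± 65 CPM (SD, n = 5). Mouse 3 of mono-IL10 stood far above the rest of its group with only 35 cells, and the lowest difference of mono-IL10 from PBS with 1 mouse left out was -0.05 on the log2 scale, against 0.24 with all. Mt2 was 45.5 ± 29.8 CPM in PBS mice, 73.3 ± 53.6 in mono-IL10 mice and 76.98 ± 14.3 in IL10/2-Trikine mice. The make-up of these cells moved with treatment. Summed T cell markers were at 1665 to 2810 CPM in PBS, 2468 to 2917 CPM in mono-IL10 and 755 to 1310 CPM in IL10/2-Trikine. Summed NK markers were at 337 to 742 CPM, 704 to 1161 CPM and 1404 to 2229 CPM, so that the IL10/2-Trikine mice overlapped neither of the other groups on either list. The part of this shift in the Mt values was not tested. Free RNA was estimated at 26.2%, 30.6% and 41.4% of their Mt1, and subtracting it took the IL10/2-Trikine difference from 0.46 to 0.10.

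Among the 12 annotated lymphocyte clusters, regulatory T cells, cycling or not, had the highest level of both genes in every library. With cells of a library summed, since most mice had under 10 of them, Treg Mt1 was 768 CPM in PBS (95% Poisson interval, 624 to 935), 1068 in mono-IL10 (907 to 1250) and 1210 in IL10/2-Trikine (948 to 1521). These intervals cover counting error only, and with 1 library per treatment they allow no test of treatment. Over mice with at least 10 Treg or cycling Treg cells the values did not follow these sums, with Mt1 at 767 and 1070.2 CPM in 2 PBS mice, from 295 to 1599 CPM in 3 mono-IL10 mice and at 881 CPM in 1 IL10/2-Trikine mouse. Treg Mt2 was 116, 274 and 282 CPM from 15, 40 and 17 UMIs. Cycling Treg cells, only 13, 6 and 13 in number, had Mt1 at 656, 1267 and 1701 CPM. Activated CD4 T cells had Mt1 at 203 CPM in PBS (144 to 278), 414 in mono-IL10 (357 to 478) and 516 in IL10/2-Trikine (363 to 711). Over mice with at least 10 of these cells, mono-IL10 mice ranged from 123 to 503 CPM, around the only PBS mouse at 183 CPM. No IL10/2-Trikine mouse had 10. The ISG+CD8T cluster, with 7, 7 and 2 cells, had 6, 7 and 0 Mt1 UMIs, which gives 314 CPM in PBS (115 to 683) and 281 CPM in mono-IL10 (113 to 579). NK cells had 209 CPM in PBS (175 to 248), 143 in mono-IL10 (124 to 164) and 385 in IL10/2-Trikine (348 to 425). Over mice with at least 10 cells of this cluster, NK Mt1 was 101 to 474 CPM in 5 PBS mice, 111 to 306 CPM in 4 mono-IL10 mice and 177 to 570 CPM in 5 IL10/2-Trikine mice, and the groups overlapped.

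The remaining lymphocytes were low. Gamma-delta T and NKT cells had Mt1 at 85.9, 89.8 and 207 CPM and cycling T cells at 160, 286 and 158 CPM in PBS, mono-IL10 and IL10/2-Trikine. Free RNA alone was estimated to give T and NK cells 60.5 CPM in PBS, 75.9 CPM in mono-IL10 and 142 CPM in IL10/2-Trikine, so that cycling T cells of IL10/2-Trikine were near it. Naive CD4 T cells, at 71.9 and 63.5 CPM, and PBS naive CD8 T cells, at 61.8 CPM, were near it, whereas naive CD8 T cells of mono-IL10 had 160 CPM (129 to 197). Mt2 had no UMI in PBS gamma-delta T and NKT cells, where 0 of 232942 UMIs allows up to 12.9 CPM, or in PBS naive CD8 T cells, where it allows up to 30.9 CPM. In IL10/2-Trikine the naive clusters held 1 or 2 cells each and are not read.

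**Figure D3:**
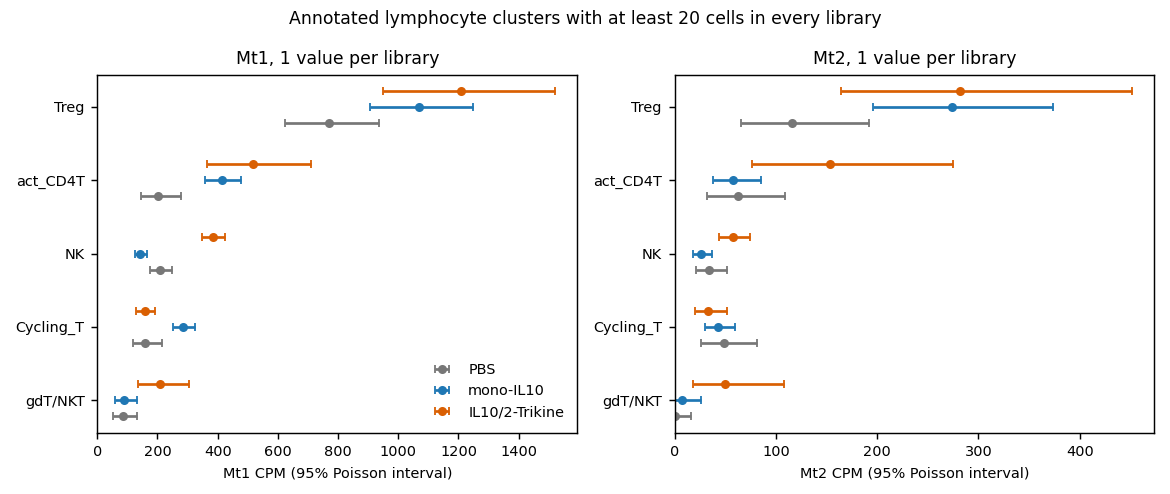
Mt1 (left) and Mt2 (right) in CPM with 95% Poisson intervals for the 5 annotated lymphocyte clusters with at least 20 cells in every library, with 1 point per library. Treg cells lie to the right of the other clusters for both genes in all 3 libraries.

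Lymphocytes outside the authors' annotation fell into clusters named T cell-like or NK cell-like from their markers. They are described after their values were seen and were not tested. T cell-like Mt1 was at 511, 553, 543, 602 and 668 CPM in PBS mice and at 562, 904, 488, 513 and 1047 CPM in mono-IL10 mice. In the 3 IL10/2-Trikine mice with at least 10 such cells it was at 1550, 1083 and 1940 CPM, above every mouse of the other groups (2.58-fold over PBS, log2 1.37, SE 0.25). The mix of clusters in this class differed between libraries, and its part in these values was not tested. The cluster led by Ccl5 and Cd8b1 held 121 PBS, 250 mono-IL10 and 20 IL10/2-Trikine cells, with or without a mouse. The cluster led by Tnfsf11, which includes Cd4 among its leading genes, held 44, 25 and 25, and the Treg-like cluster led by Tnfrsf4, Il2ra and Foxp3 held 62, 35 and 52. With cells of a library summed, Mt1 in PBS, mono-IL10 and IL10/2-Trikine was 234, 447 and 664 CPM in the Ccl5 cluster. It was 569, 1156 and 1192 CPM in the Tnfsf11 cluster and 824, 1361 and 1552 CPM in the Treg-like cluster, and with 1 library per treatment these sums allow no test of treatment. NK cell-like Mt1 was at 697 to 1054 CPM in 5 IL10/2-Trikine mice, against 208 CPM in the only PBS mouse and 304 and 318 CPM in the 2 mono-IL10 mice with at least 10 such cells. These values rest on 10 to 82 cells per mouse, and no free RNA estimate was made for them.

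The order of levels across cell types was steadier for Mt1 than for Mt2. Mt1 was higher in macrophage-like than in tumor, dendritic, fibroblast or endothelial cells of the same mouse in 15 of 15 mice. Tumor and dendritic cells could not be ordered, with tumor higher in 5 of 5 PBS mice but in 1 of 5 mono-IL10 and 3 of 5 IL10/2-Trikine mice. Dendritic cells were above fibroblasts in 14 of 15 mice and fibroblasts above endothelial cells in 15 of 15. Over the summed cells of PBS, mono-IL10 and IL10/2-Trikine, free RNA was estimated at 437 of 1137, 317 of 2288 and 621 of 2001 CPM of dendritic Mt1. In fibroblasts it was 138 of 878, 50.8 of 933 and 360 of 1415 CPM. Whether dendritic cells stay above fibroblasts with free RNA subtracted was not tested. Endothelial cells and annotated T cells other than Treg could not be ordered, with endothelial cells higher in 11 of 15 mice. The free RNA estimate for endothelial Mt1 was 109%, 147% and 264% of its level in PBS, mono-IL10 and IL10/2-Trikine. It exceeded the whole level in each library, so it could not say how much of the endothelial Mt1 was background. For Mt2, macrophage-like and tumor cells were interleaved, with macrophages higher in 10 of 15 mice, and macrophage-like cells and fibroblasts likewise, in 9 of 15.

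Neutrophils, fibroblasts and endothelial cells, which the selection did not name, were tested by exact two-sided permutation of mice, with Benjamini-Hochberg adjustment over 14 tests. None of the 14 passed: the lowest adjusted p was 0.511, the lowest exact p was 0.111, and 0 of 14 were under 0.05 before adjustment. The smallest exact p that 5 against 5 mice allow is 0.00794. After adjustment over 14 tests, 1 test alone at that p would not have passed 0.05. Fibroblast Mt1 was 983 ± 246 CPM in PBS mice, 1018 ± 287 in mono-IL10 mice and 1444 ± 587 in IL10/2-Trikine mice (SD, n = 5). The log2 difference of IL10/2-Trikine from PBS was 0.49 (SE 0.31, 1.41-fold, exact p = 0.159, adjusted p = 0.511), with 2 of 5 mice above every PBS mouse. Endothelial Mt1 was 308 ± 77, 274 ± 32 and 445 ± 212 CPM, against 280, 354 and 864 CPM estimated from free RNA in the summed cells of each library. In neutrophils, where only 1 IL10/2-Trikine mouse had 10 cells, Mt1 was 584 ± 268 CPM in PBS and 699 ± 211 in mono-IL10 (log2 0.34, SE 0.37, exact p = 0.373, adjusted p = 0.533). Mast cells had at least 10 cells in 1 mouse per group and were not tested. Summed over a library they had Mt1 at 1416, 2773 and 2850 CPM in PBS, mono-IL10 and IL10/2-Trikine, and no usable free RNA estimate was obtained, since tumor markers in them reached or nearly reached the level in barcodes with under 1000 genes. With these spreads a difference of the size seen in tumor cells may not have been detectable in these classes.

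Other genes of metal handling and stress were then tested in macrophage-like cells with edgeR's quasi-likelihood test, with adjustment over all 12261 genes tested. In IL10/2-Trikine against PBS, 8.87% of all genes were higher and 8.63% lower. In mono-IL10 against PBS, 13.7% were higher and 13% lower. Both comparisons share the same PBS mice, and the changes are of a class whose mix of clusters differed between libraries. Besides the Cx3cr1 cluster, the cluster led by Fcrls, Nrg1 and Ccl8, with Cd163 among its leading genes, held 151, 1398 and 305 cells in PBS, mono-IL10 and IL10/2-Trikine, and the part of the mix in the changes of other genes was not tested. The adjusted p-values below are from this test. The log2 changes, SE and CPM of the list genes are from its fit, with TMM scaling.

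The share of zinc genes called was near that of all genes. Of 18 tested members of the zinc list, 3 rose and 0 fell in IL10/2-Trikine against PBS (5 under 0.05 before adjustment, 3 called by DESeq2), and 4 rose and 1 fell in mono-IL10. Their median log2 change was 0.012 and 0.070, against 0.0061 and -0.0025 over all genes. Slc39a8, a zinc importer, was 4.08 to 9.41 CPM in PBS mice, 12.7 to 17.0 in mono-IL10 mice and 12.1 to 15.9 in IL10/2-Trikine mice, so the treated mice lay above all PBS mice. It rose by 1.13 on the log2 scale in mono-IL10 (SE 0.15, adjusted p = 1.33e-05) and by 0.91 in IL10/2-Trikine (SE 0.17, adjusted p = 9.48e-04). Slc39a1, another importer, rose by 0.63 and 0.51 (adjusted p = 1.03e-04 and 0.00277). Slc39a14, an importer of zinc and iron, rose by 0.65 in mono-IL10 (SE 0.07, adjusted p = 2.80e-06), whereas in IL10/2-Trikine its change was -0.08 (SE 0.09, adjusted p = 0.576). The difference between the treatments for Slc39a14 was itself -0.73 (SE 0.08, adjusted p = 2.27e-05). Slc39a9 rose in IL10/2-Trikine (0.34, SE 0.10), and in mono-IL10 Slc39a4 fell by 0.85 (SE 0.21) from 4.71 to 2.51 CPM.

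The zinc exporter Slc30a1, known as a target of MTF1, and Mtf1 itself did not pass; both were chosen for mention after their values were seen. Slc30a1 was 45.3 CPM in PBS (29.6 to 64.6), 57.3 in mono-IL10 (54.5 to 58.9) and 50.1 in IL10/2-Trikine (33.5 to 59.4), with log2 changes of 0.34 (SE 0.13, adjusted p = 0.0663) and 0.19 (SE 0.15, adjusted p = 0.427). Mtf1 was 15.7, 16.2 and 15.1 CPM, with changes of 0.05 (SE 0.10) and -0.06 (SE 0.12).

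Most NRF2 genes, a set that responds to oxidative stress, fell in both treatments. Of 11 tested, 0 rose and 9 fell in mono-IL10, and 1 rose and 7 fell in IL10/2-Trikine, with a median log2 change of -0.41 and -0.37. Txnrd1, thioredoxin reductase, was 287 to 349 CPM in PBS mice, 218 to 254 in mono-IL10 mice and 143 to 199 in IL10/2-Trikine mice, 3 ranges that did not overlap. It fell by 0.41 in mono-IL10 (SE 0.08, adjusted p = 4.23e-04) and by 0.83 in IL10/2-Trikine (SE 0.08, adjusted p = 9.47e-07). Slc7a11, the cystine importer, fell by 0.68 in IL10/2-Trikine, as did Srxn1 by 0.67 and Nfe2l2, which encodes NRF2, by 0.59. In mono-IL10 the largest falls were of Gclc by 0.82 and Gclm by 0.67, which form the enzyme of glutathione synthesis, of Osgin1 by 0.72 and of Prdx1 by 0.61. Gsr, glutathione reductase, was the member that rose in IL10/2-Trikine (0.42, SE 0.11, adjusted p = 0.0127).

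**Figure D4:**
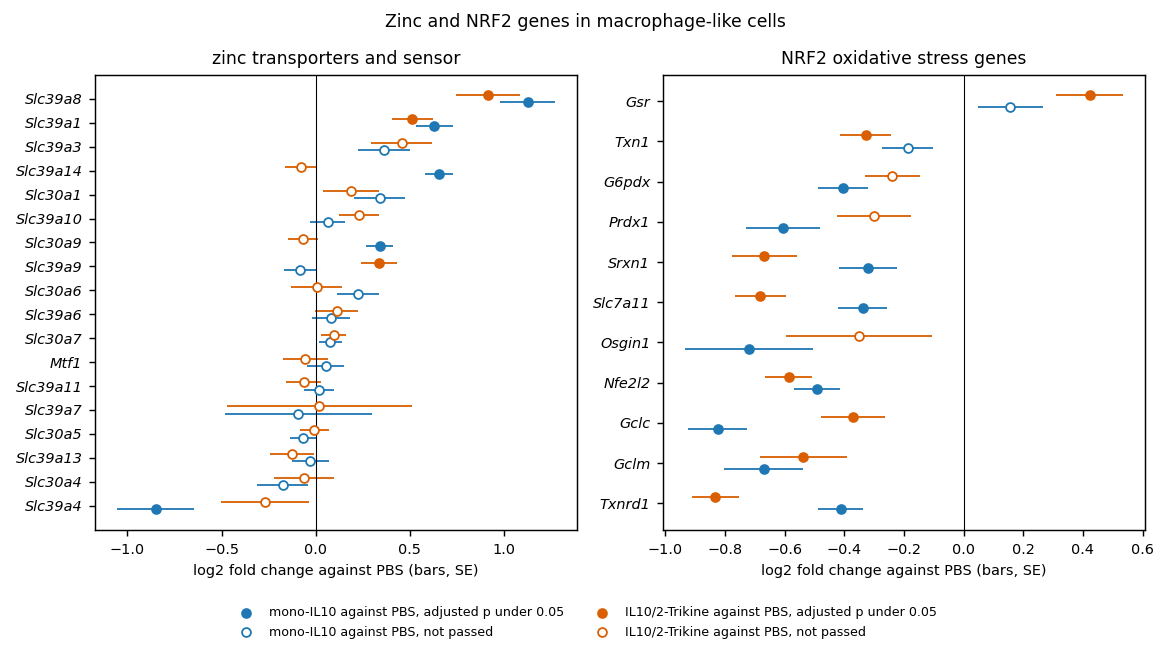
Log2 fold change against PBS in macrophage-like cells for each tested gene of the zinc list (18 genes, left) and the NRF2 list (11 genes, right), with bars for the SE. Filled points passed an adjusted p of 0.05 in edgeR: Slc39a8 and Slc39a1 lie to the right of 0 in both treatments, and most NRF2 genes lie to its left.

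Copper and iron genes were mixed. Of 9 copper genes tested, 1 rose in IL10/2-Trikine, and 2 rose and 1 fell in mono-IL10. Cox17, the copper chaperone of cytochrome oxidase, rose by 0.35 and 0.30 in IL10/2-Trikine and mono-IL10 (adjusted p = 0.00263 and 0.00384). The importer Slc31a1 rose in mono-IL10 (0.32, adjusted p = 0.00710), and ceruloplasmin, Cp, fell there by 1.52 (adjusted p = 2.09e-04). Cp is also a leading gene of tumor epithelial-like clusters, whose markers in macrophage-like cells were at 39.3 to 82.1 CPM in PBS and 27.4 to 68.0 CPM in mono-IL10, and their part in this fall was not tested. Of 12 iron and heme genes, 1 rose and 4 fell in IL10/2-Trikine, and 2 rose and 2 fell in mono-IL10. Cd163, the hemoglobin scavenger receptor, was 5.52 to 30.7 CPM in PBS mice and 53.6 to 192.4 CPM in treated mice, with log2 changes of 2.85 in IL10/2-Trikine and 2.82 in mono-IL10. The iron exporter Slc40a1 fell by 1.22 and 1.94, and Slc11a1, the metal transporter of the phagosome, by 0.84 and 0.66.

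Genes of the IL-10 response were called in both directions. Of 12 IL-10 and STAT3 response genes, 8 rose and 1 fell in mono-IL10, and 3 rose and 3 fell in IL10/2-Trikine. Il4ra rose by 1.27 in mono-IL10 (adjusted p = 3.16e-08) and by 1.05 in IL10/2-Trikine (adjusted p = 1.25e-06). In mono-IL10, Nfil3 rose by 0.59, Il1rn, the interleukin-1 receptor antagonist, by 0.58 and Socs3, the feedback inhibitor of STAT3, by 0.55. In IL10/2-Trikine against mono-IL10, where 5.37% of genes were higher and 7.15% lower, 6 of the 12 fell, with Socs3 down by 0.58 and Cd14 by 0.55, and 0 rose (9 under 0.05 before adjustment and 6 called by DESeq2, in either direction). Of 14 hypoxia genes, 9 rose in mono-IL10, among them Adm, from 0.88 to 1.72 CPM, and Ndrg1, up by 0.83, and none was called in IL10/2-Trikine (6 under 0.05 before adjustment, 0 called by DESeq2). Of 10 glucocorticoid-induced genes, 4 rose in mono-IL10, and 1 rose and 1 fell in IL10/2-Trikine, with Tsc22d3 up by 0.34 and 0.65. Of 9 heat shock genes, 2 fell in mono-IL10 and 3 in IL10/2-Trikine, among them Hsp90aa1 by 0.34 and 0.62. Of 10 immediate early genes, which tissue digestion is known to raise, 3 rose and 1 fell in mono-IL10 and 2 fell in IL10/2-Trikine, with Atf3 down by 0.54 and 0.35.

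The same lists were tested in the other classes named by the selection. In dendritic cell-like cells (7492 genes tested), IL10/2-Trikine against PBS had 0.36% of genes higher and 0.454% lower. The only list gene called was Nfe2l2, 1 of 11 NRF2 genes tested, which fell by 0.55 (adjusted p = 0.0174). mono-IL10 against PBS had 2.08% higher and 1% lower and 8 list genes, among them Il4ra, up by 0.66, and Gclc, down by 0.96. Higher were 2 of 12 IL-10 and STAT3 response genes, 1 of 9 copper genes and 1 of 11 hypoxia genes tested. Lower were 1 of 11 iron and heme, 1 of 11 NRF2, 1 of 8 heat shock and 1 of 10 immediate early genes. In IL10/2-Trikine against mono-IL10, where 0.28% of genes were higher and 1.05% lower, 1 list gene rose and 3 fell. They were among 9 copper, 11 iron and heme and 11 hypoxia genes tested, and no gene of the other lists was called. Cp rose by 1.98 (adjusted p = 0.0422). Tumor epithelial markers in the dendritic class were at 21.4 to 339 CPM in mono-IL10 and 130 to 681 CPM in IL10/2-Trikine, and their part in this rise was not tested. The copper chaperone Atox1 fell by 0.44 (adjusted p = 0.0102), Fth1 by 0.68 (adjusted p = 0.00804) and Ndrg1 by 0.56 (adjusted p = 0.0200). None of the 12 zinc genes tested there was called against PBS in either treatment (1 under 0.05 before adjustment in each, 0 called by DESeq2).

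In tumor epithelial-like cells (15099 genes), 10.4% of genes were higher and 12% lower in IL10/2-Trikine, and 3.94% and 2.59% in mono-IL10. The mix of tumor clusters differed between libraries. The cluster led by Wfdc2 and Rbp4 held 948 PBS, 483 mono-IL10 and 3303 IL10/2-Trikine cells, and the cluster led by Hmga2 and Sprr1a held 1446, 1420 and 1737. The part of the mix in these changes was not tested. Of 18 zinc genes, 3 rose and 2 fell in IL10/2-Trikine, the largest change being Slc39a7, a zinc channel of the endoplasmic reticulum, down by 0.74 (adjusted p = 1.34e-06), with Slc30a1 up by 0.35 (adjusted p = 0.0475). In mono-IL10 1 fell, Slc39a11, by 0.23. Of 12 NRF2 genes, 1 rose and 5 fell in IL10/2-Trikine and 2 fell in mono-IL10, with Slc7a11 down by 0.35 and 0.50. Of 9 heat shock genes, 5 fell in IL10/2-Trikine.

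In annotated T and NK cells (4595 genes), 4.7% of genes were higher and 4.79% lower in IL10/2-Trikine, and 0.696% and 0.413% in mono-IL10. These changes are of all annotated cells together, whose T and NK marker levels shifted as given above. In IL10/2-Trikine against PBS 8 list genes were called. Higher were 3 of 6 hypoxia genes and 1 of 4 copper genes tested. Lower were 2 of 7 glucocorticoid-induced, 1 of 5 iron and heme and 1 of 9 immediate early genes. Among the genes called were Cox17, up by 0.79 (adjusted p = 0.00345), and Fth1, the ferritin heavy chain, down by 0.68 (adjusted p = 6.02e-05). Against mono-IL10, where 3.94% of genes were higher and 4.9% lower, 7 list genes rose and 3 fell. In each of the iron and heme (5 tested), NRF2 (8 tested) and glucocorticoid (7 tested) lists 1 rose and 1 fell. Elsewhere 2 of 6 hypoxia, 1 of 8 heat shock and 1 of 9 immediate early genes rose. Among the genes called were Tfrc, the transferrin receptor, up by 0.84 (adjusted p = 0.0332), and Fth1, down by 0.64 (adjusted p = 8.86e-05). Of 8 NRF2 genes tested none was called in mono-IL10 (1 under 0.05 before adjustment, 0 by DESeq2) or in IL10/2-Trikine (4 and 1).

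The genes whose pattern was most like that of Mt1 and Mt2 were found by the mean of the Pearson correlations with both, over log2(CPM + 1) values. Across the 60 clusters of all cells, where Mt1 and Mt2 correlated with r = 0.83, they included Igsf8 (mean r = 0.80), Ptgr1 (0.77), Pgam1 (0.77), Sdc4 (0.76) and Axl (0.74), out of 9115 genes compared. Pgam1 is a glycolytic enzyme, Sdc4 a cell surface proteoglycan and Axl a receptor tyrosine kinase of macrophages. Across the 15 mice within macrophage-like cells, with the mean of each treatment removed, Mt1 and Mt2 correlated with r = 0.58, and the nearest genes were Cyb5r4 (mean r = 0.71), Eif5 (0.70), Mppe1 (0.67), Cflar (0.66), Adck1 (0.65) and Fech (0.65), out of 7767. Each of these genes correlated more with Mt2 (r = 0.73 to 0.88) than with Mt1 (r = 0.46 to 0.60). Clusters share libraries and depth, and mice share libraries, so all these values describe the data and carry no p.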

How the data were processed

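UMI counts per gene and barcode were deposited without normalization for 3 treatment libraries, made by the authors with Cell Ranger 9.0.1 on GRCm39 with its filtered barcodes, with counts for 5 hashtag antibodies per library. The authors' table of annotated T and NK cells gives each cell's hashtag, its total UMI count and 1 of 12 clusters; 7858 of its cells belong to groups with no sample here and were not used. The submitters' notes name Seurat 5.1.0 and DESeq2 1.46.0.

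Barcodes with at least 1000 genes and at most 10% of UMIs from mitochondrial genes were kept. Mice were called with Seurat 5.3.0 (HTODemux, positive quantile 0.99), which gave 97.1% to 98.6% of annotated cells the deposited call, and barcodes with more than 1 hashtag, 8.64% to 13.3% of the barcodes kept, were removed as doublets. Cells were clustered without Mt1 and Mt2 (2000 variable genes, 40 components, 60 k-means clusters, scikit-learn 1.9.0) and named from marker lists; the score of 0.5 at which a class could enter was added after the clusters had been inspected.

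Counts were summed per mouse and class (at least 10 cells) and scaled to CPM. Differences of Mt1 and Mt2 are of log2(CPM + 1). For the list genes, log2 changes and TMM-scaled CPM are from the edgeR fit, and SE was derived from its F statistic. Other genes were tested with edgeR 4.0.16 (quasi-likelihood, TMM, filterByExpr; adjusted p threshold 0.05) and again with DESeq2 1.42.0, in R 4.3.3, after a check on simulated data; exact permutation tests used scipy 1.17.1. Nothing says that the mice of a group came from separate cages or days, so p-values measure the spread between these mice only. The members and gene lists were chosen with earlier results of these data known. Of each list, up to 4 genes that passed with the largest change were named per comparison, and the 6 genes most like the members were those with the highest mean of the Pearson correlations with Mt1 and Mt2. One of these genes is not reported here.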

Additional observations from a re-analysis of the deposited data

Results flagged for a closer look

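Within groups of 5 mice, the highest or lowest mouse was compared with its nearest neighbour by Dixon's ratio, over 40 groups of mice, and 3 stood apart from their group. Chance flags about 1 in 20 such groups. In macrophage-like cells, mouse 5 of IL10/2-Trikine had Mt1 at 4204 CPM, with the next mouse at 3587. In dendritic cell-like cells, mouse 1 of PBS had Mt2 at 95.4 CPM, with the next at 80.7. In neutrophils, mouse 3 of PBS had Mt2 at 186 CPM, with the next at 13.7 and 0 UMIs in mice 1 and 4. Mouse 5 of IL10/2-Trikine also had the most Mt2 of its group in macrophage-like cells, 640.0 CPM. Without it, the macrophage Mt1 difference of IL10/2-Trikine from PBS on the log2 scale was 0.88, against 0.94 with all mice.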

How the results depend on the processing

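Of 179 values for Mt1 and Mt2 recomputed under other settings without leaving out a mouse, 174 moved by less than the spread between mice. With estimated free RNA subtracted, Mt1 in dendritic cell-like cells turned from 0.64 to -0.19 on the log2 scale for IL10/2-Trikine against PBS, and became 0.68 for mono-IL10 against PBS and -0.87 for IL10/2-Trikine against mono-IL10, and Mt1 in annotated T and NK cells became 0.10 for IL10/2-Trikine against PBS. With TMM scaling, Mt1 in tumor epithelial-like cells became 0.54 for mono-IL10 against PBS. The causes were not tested. The estimate took 64.7% of PBS dendritic RNA as free, against 13.9% in PBS macrophage-like cells, and its accuracy was not tested. Subtraction could not be computed for Mt2 in dendritic cell-like cells and neutrophils or for either gene in endothelial cells, where the estimate reached the whole level of a mouse, and with at least 2000 genes per cell no IL10/2-Trikine mouse kept 10 annotated cells. All 240 values with 1 mouse left out moved by less than 1 SD. Among values near 0, the T and NK Mt1 difference of mono-IL10 from PBS was -0.17 with at least 2000 genes per cell and -0.05 without mouse 3 of mono-IL10, the T and NK Mt1 difference between treatments ranged from -0.04 (without mouse 4 of mono-IL10) to 0.51 with 1 mouse left out and was -0.06 with free RNA subtracted, and the macrophage Mt1 difference between treatments was -0.03 with TMM. In the classes outside the selection, no adjusted p went under 0.222 in any setting or with any mouse left out.

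Counts of list genes called moved in these cases. In dendritic cell-like cells, IL10/2-Trikine against PBS had 1 call, and 4 with DESeq2, 2 with DESeq2 size factors, 3 with at least 2000 genes per cell and 9 with no filter on low counts; against mono-IL10 it had 4, and 7, 8 and 14 with DESeq2, at least 2000 genes and no filter; mono-IL10 against PBS had 8, and 15 with no filter. In T and NK cells, mono-IL10 against PBS had 0 by edgeR, 1 with DESeq2 and 4 with no filter, and IL10/2-Trikine against mono-IL10 had 10, and 6 with no filter. With 1 mouse left out, counts ranged from 3 to 8 (mono-IL10 against PBS), 1 to 2 (IL10/2-Trikine against PBS) and 2 to 6 (IL10/2-Trikine against mono-IL10) in dendritic cell-like cells, from 0 to 2, 5 to 9 and 3 to 10 in T and NK cells, from 6 to 19, 25 to 36 and 44 to 55 in tumor cells, and from 40 to 49, 27 to 36 and 24 to 28 in macrophage-like cells. In tumor cells the lowest counts for mono-IL10 against PBS came without mouse 4 (6) or 1 (8) of PBS or mouse 2 (8), 3 (10) or 5 (10) of mono-IL10. In dendritic cell-like cells every mouse but mouse 4 of mono-IL10 took the mono-IL10 count to 5 or fewer. In T and NK cells the count against mono-IL10 fell to between 3 and 6 without mouse 1, 2 or 3 of IL10/2-Trikine or mouse 1 or 4 of mono-IL10, and the count against PBS fell to 5 without mouse 2 of IL10/2-Trikine. Small counts also moved: mono-IL10 against PBS in T and NK cells had 1 or 2 without mouse 2 of PBS or mouse 1 or 2 of mono-IL10, and in dendritic cell-like cells IL10/2-Trikine had 2 against PBS without its mouse 1 or mouse 1 of PBS and 2 against mono-IL10 without mouse 2 of mono-IL10.

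No paired analysis was possible because the labels give 1 library per treatment with no mouse numbers, and hashtag numbers name different mice in each treatment. Depth limited the low levels: naive CD4 T and naive CD8 T cells held 0 Mt2 UMIs in PBS.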
